A study of Mus with 5 samples.

Results

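The vascular endothelial growth factor (VEGF) ligands and receptors were examined in hearts that overexpress *Bmp2*, as the genes *Vegfa*, *Vegfb*, *Vegfc*, *Kdr*, *Flt1*, *Flt4* and *Nrp1*. They were chosen by their Ensembl identifiers from knowledge of the pathway, with earlier results of these data known. All 7 were among the 12857 genes with deposited values. RNA was taken at E14.5 from mouse hearts without atria (ventricles and valves), with 4 hearts in each pool. The transgenic group had 3 pools of *Nkx2.5Cre/+;Bmp2tg/+* hearts and the WT group had 2 pools. The transgene, targeted to *Rosa26*, carries mouse *Bmp2* and eGFP under the CAG promoter behind a floxed stop, which Cre expressed from *Nkx2.5* removes in cardiac progenitors and the myocardium that they form. The labels call the control pools WT only. Whether these embryos carried the Cre allele is not given in the sources used here, and the study's viability cross used *Nkx2.5Cre/Cre* females, whose offspring all carry it. Where they did not, effects of Cre and of the transgene cannot be told apart. The study made 3 pools per genotype and left out 1 WT pool that clustered apart from the other WT pools. That pool was not analysed here.

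VEGF ligands are secreted proteins that bind receptor tyrosine kinases on endothelial cells, the cells that line vessels and the heart chambers. Vegfa acts mainly through the receptor encoded by *Kdr* (VEGFR2), which drives endothelial growth, migration and survival. The product of *Flt1* (VEGFR1) binds Vegfa tightly but signals weakly, and its soluble form acts as a decoy. *Flt4* encodes VEGFR3, the receptor of Vegfc, found on lymphatic and sprouting endothelium and in the embryonic endocardium. Neuropilins, encoded by *Nrp1* and *Nrp2*, are coreceptors that also bind class 3 semaphorins. In the developing heart, myocardial Vegfa guides the growth of the coronary vessels, which form during the days around E14.5.

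The values are CPM, read counts relative to the size of each library, scaled by the authors. They rest on 7427905 to 10564780 reads per library. The test was limma on log2(CPM + 0.5). Benjamini-Hochberg adjustment covered all 12857 genes, and a gene was called at an adjusted p at or under 0.05. *Bmp2*, the overexpressed gene, was at 23.0, 27.1 and 23.3 CPM in transgenic hearts, against 14.1 and 10.2 CPM in WT hearts (log2 fold change 0.99, SE 0.13, limma adjusted p = 0.000712). These reads do not tell the transgene from the endogenous gene. The heart factors *Gata4* and *Tbx20* were read in every pool, and both were called as higher in transgenic hearts. *Gata4* was at 264 to 286 CPM, against 233 and 240 CPM in WT hearts (limma adjusted p = 0.0411). *Tbx20* was at 896 to 954 CPM, against 670 and 739 CPM in WT hearts (limma adjusted p = 0.00162).

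Among the VEGF genes, 2 receptor transcripts fell in transgenic hearts and no ligand was called. *Kdr* fell by 27.1% and *Flt4* fell by 30.3%. These 2 calls among 7 genes compare with 2.82% of all genes called in either direction, with 1.59% called as lower and with 1.22% called as higher. Since the 7 genes were chosen with earlier results of these data known, this comparison is a description only. The 3 ligands had positive log2 fold changes, from 0.06 to 0.19, and the 4 receptor and coreceptor genes had negative ones, from -0.52 to -0.11. The median over the 7 genes was -0.11, beside 0.00452 over all 12857 genes. For 4 of the 7 genes the transgenic pools did not overlap with the WT pools, 1 above and 3 below. Over all genes this share was 35.7%, with 17.7% above and 18% below. An unadjusted limma p was under 0.05 for 4 of the 7 and for 17.7% of all genes.

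**Figure D1:**
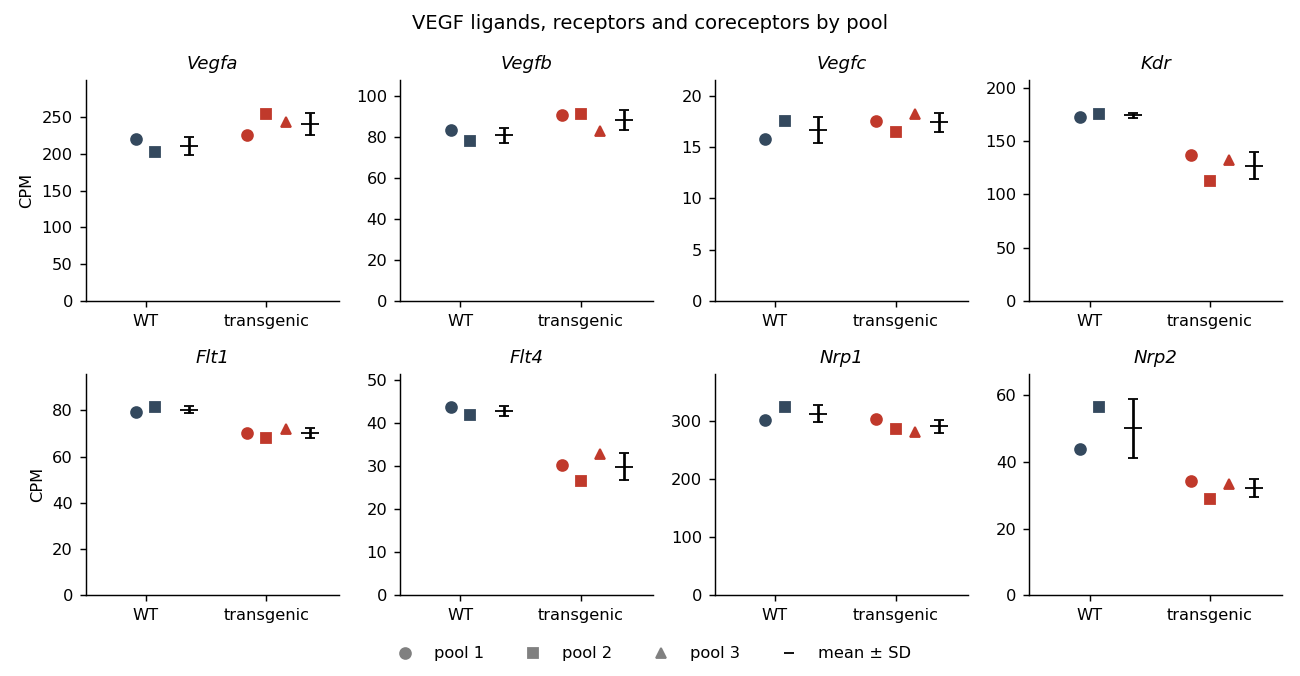
CPM (vertical axes, starting at 0) of the 7 VEGF genes and of *Nrp2* in each pool of WT hearts (dark) and transgenic hearts (red). Marker shapes give the pool number, and bars show the mean ± SD over 2 WT or 3 transgenic pools. All transgenic pools lie below both WT pools for *Kdr*, *Flt1*, *Flt4* and *Nrp2*, and above them for *Vegfa*, while the groups overlap for *Vegfb*, *Vegfc* and *Nrp1*.

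*Kdr* (ENSMUSG00000062960, chromosome 5 of GRCm38, 75932827 to 75979072) had the most reads of the 3 tyrosine kinase receptor genes, 1045 to 1629 per pool. It was at 136.6, 112 and 132 CPM in transgenic pools 1, 2 and 3, against 172 and 176 CPM in WT pools 1 and 2. The highest transgenic pool was 35.7 CPM below the lowest WT pool. The means were 127 ± 13.0 CPM (SD, n = 3) and 174 ± 2.48 CPM (SD, n = 2). The log2 fold change was -0.46 (SE 0.07, 95% interval -0.61 to -0.30, limma adjusted p = 0.00286), and *Kdr* ranked at place 68 of all genes by p. Among the 205 genes called as lower, 79 had a larger fall than *Kdr*.

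*Flt4* (ENSMUSG00000020357, chromosome 11, 49609679 to 49652739), the Vegfc receptor gene, had the largest log2 fold change of the 7 in size, while *Kdr* differed by more CPM. It was at 30.1, 26.4 and 32.6 CPM in transgenic hearts, against 43.6 and 41.8 CPM in WT hearts, from 246 to 412 reads per pool. The groups were separated by 9.18 CPM. The means were 29.7 ± 3.13 CPM (SD, n = 3) and 42.7 ± 1.23 CPM (SD, n = 2), with a log2 fold change of -0.52 (SE 0.09, 95% interval -0.72 to -0.32, limma adjusted p = 0.00646). Its place by p was 106.

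*Flt1* (ENSMUSG00000029648, chromosome 5, 147561604 to 147726438) was at 70.3, 68.1 and 72.2 CPM in transgenic hearts, against 79.3 and 81.4 CPM in WT hearts. All transgenic pools were below both WT pools, by at least 7.13 CPM. The log2 fold change of -0.19 (SE 0.06, 95% interval -0.33 to -0.06) was not called (limma adjusted p = 0.118, unadjusted p = 0.00826). The smallest log2 fold change of any gene called in this limma fit was 0.22 in size, so the *Flt1* difference lay under the sizes called there. The deposited values are 1 per gene and do not separate transcripts of the soluble form from those of the full receptor.

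The coreceptor gene *Nrp1* (ENSMUSG00000025810, chromosome 8, 128358591 to 128505476) was at 305, 288 and 281 CPM in transgenic hearts, against 303 and 324 CPM in WT hearts. Transgenic pool 1 was above WT pool 1, so the groups overlapped. The log2 fold change was -0.11 (SE 0.06, 95% interval -0.23 to 0.02, limma adjusted p = 0.351). It was -0.156 without WT pool 1 and -0.056 without WT pool 2. With 2251 to 3186 reads per pool, *Nrp1* had the smallest counting error of the 7 genes, and the interval leaves room for a fall of up to 0.23 on the log2 scale.

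The other neuropilin gene, *Nrp2*, is no member of the 7 but belongs to the family and was named in the study's list of changed genes, which was made from the same libraries. *Nrp2* (ENSMUSG00000025969, chromosome 1, 62703317 to 62818692), a coreceptor for VEGFR3, was at 34.3, 29.0 and 33.3 CPM in transgenic hearts, against 43.8 and 56.4 CPM in WT hearts. The WT pools lay far apart (coefficient of variation 17.9%), and every transgenic pool was below both. *Nrp2* fell by 35.0% (log2 fold change -0.62, SE 0.11, limma adjusted p = 0.00402). Its log2 fold change was -0.80 without WT pool 1 and -0.44 without WT pool 2, and in the latter fit the call was lost. *Kdr* and *Flt4* also stand on the study's list, so their presence there is not independent evidence of their direction.

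*Vegfa* (ENSMUSG00000023951, chromosome 17, 46016993 to 46032377), the main ligand of *Kdr*, was at 225, 254 and 243 CPM in transgenic hearts, against 219 and 202 CPM in WT hearts. No transgenic pool fell within the WT range, though transgenic pool 1 was only 5.58 CPM above WT pool 1. The means were 240.5 ± 14.9 CPM (SD, n = 3) and 210.4 ± 12.3 CPM (SD, n = 2). The log2 fold change of 0.19 (SE 0.06, 95% interval 0.06 to 0.33) was not called (limma adjusted p = 0.116, unadjusted p = 0.00795). RefSeq lists 10 curated transcripts of *Vegfa*, and the values do not separate them.

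*Vegfb* (ENSMUSG00000024962, chromosome 19, 6982472 to 6987651), a ligand of VEGFR1, was at 90.6, 91.4 and 82.7 CPM in transgenic hearts, against 83.4 and 78.1 CPM in WT hearts. Transgenic pool 3 was below WT pool 1. The log2 fold change was 0.13 (SE 0.07, 95% interval -0.02 to 0.27, limma adjusted p = 0.347). It was 0.172 without WT pool 1 and 0.079 without WT pool 2. *Vegfc* (ENSMUSG00000031520, chromosome 8, 54077532 to 54186454), the ligand of VEGFR3, had the fewest reads of the 7, from 131 to 183 per pool. It was at 17.5, 16.4 and 18.3 CPM in transgenic hearts, against 15.8 and 17.6 CPM in WT hearts, and the groups overlapped. Its log2 fold change of 0.06 (SE 0.11, limma adjusted p = 0.827) had a 95% interval from -0.18 to 0.30.

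The spread between pools was set beside the counting error that the reads alone give. For *Kdr* the coefficient of variation over the transgenic pools was 10.3%, against a counting error of 2.91%. For *Flt4* it was 10.5% against 6.04%. In WT pools the variation was 1.42% for *Kdr* and 2.88% for *Flt4*, which is under the counting errors of 2.61% and 5.26%. The WT pool that the study left out for clustering apart is not part of this WT spread. For *Flt1*, *Vegfc* and *Vegfb* the transgenic variation was 2.92%, 5.29% and 5.45%, against counting errors of 3.93%, 7.89% and 3.49%. The spread of the abundantly read *Vegfa* and *Nrp1* was above counting error in both genotypes. For *Vegfa* it was 6.18% against 2.12% in transgenic pools and 5.86% against 2.36% in WT pools. For *Nrp1* it was 4.12% against 1.92% in transgenic pools and 4.89% against 1.95% in WT pools. *Vegfb* in WT pools was at 4.61% against 3.82%, while *Flt1* and *Vegfc* in WT pools were under their counting errors, at 1.82% against 3.84% and at 7.67% against 8.45%. The transgenic spread was thus above the counting error for 5 of the 7 genes and below it for *Flt1* and *Vegfc*, a comparison given without a test. The values hold no molecular identifiers, so counting error is a lower limit of the technical error.

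Transgenic pool 2 had the lowest value of the 5 libraries for *Kdr*, *Flt1*, *Flt4* and *Nrp2*, and the highest for *Vegfa* and *Vegfb*. Relative to the WT mean, it was at -0.63 for *Kdr*, -0.68 for *Flt4*, -0.24 for *Flt1* and 0.27 for *Vegfa* on the log2 scale. Transgenic pools 1 and 3 were at -0.35 and -0.39 for *Kdr*, at -0.50 and -0.38 for *Flt4*, and at 0.10 and 0.21 for *Vegfa*. Low values in pool 2 were not particular to the VEGF genes. Most marker and pathway genes named below that were lower in transgenic hearts were lowest in pool 2. *Ryr2*, for example, was at 425 CPM there, against 480 and 459 CPM in transgenic pools 1 and 3. *Rgs5*, *Cd36* and *Dcn* were lowest in transgenic pool 1. Pool 2 also had the highest *Bmp2* value of the 3, at 27.1 CPM against 23.0 and 23.3 CPM, with a counting error of 6.65%. A link between the levels of *Bmp2* and of the VEGF genes was not tested. Without transgenic pool 2, *Kdr* fell by 0.37 and *Flt4* by 0.44 on the log2 scale, and both were still called (limma adjusted p = 0.00293 and 0.0176).

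**Figure D2:**
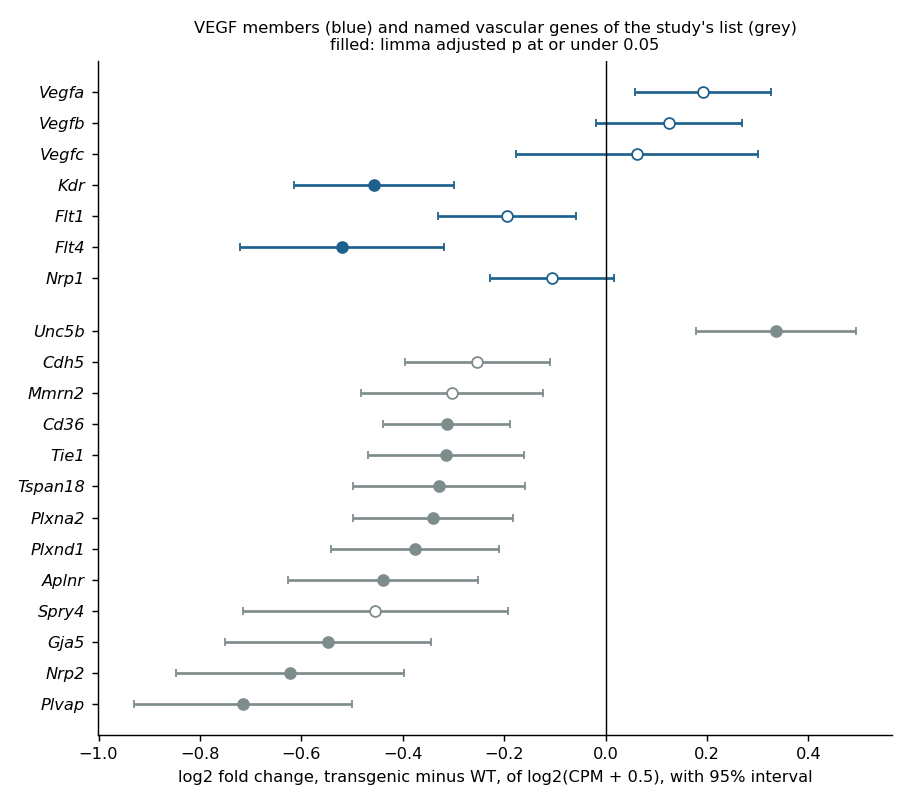
Log2 fold changes of log2(CPM + 0.5), transgenic minus WT, with 95% intervals from limma, for the 7 VEGF genes (blue) and for vascular genes that could be named from the study's list of changed genes (grey). Filled points have an adjusted p at or under 0.05. *Kdr* and *Flt4* are the filled VEGF genes, the 3 ligands lie right of 0, and the grey genes, which the study picked for having changed in these libraries, lie between -0.72 and 0.34.

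Ratios of 2 genes within a library do not depend on how the library was scaled. Their size depends on the lengths of both transcripts, so only their change between genotypes is read. The ratio of *Vegfa* to *Kdr* was 1.65, 2.27 and 1.83 in transgenic hearts, against 1.27 and 1.15 in WT hearts. This was 1.57-fold higher in transgenic hearts, with no overlap. The ratio of *Vegfc* to *Flt4* was 0.581, 0.622 and 0.559 against 0.362 and 0.42, or 1.51-fold higher, also with no overlap. Most of this change is the fall of *Flt4*, with log2 fold changes of -0.52 for *Flt4* and 0.06 for *Vegfc*.

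The ratio of *Flt1* to *Kdr*, both of which encode Vegfa receptors, was 0.515, 0.607 and 0.545 in transgenic hearts, against 0.460 and 0.463 in WT hearts. The log2 difference was 0.26, and leaving out single pools moved it between 0.20 and 0.32. The ratio of *Flt4* to *Kdr* was 0.221, 0.235 and 0.246 in transgenic pools and 0.253 and 0.238 in WT pools, with overlap and a log2 difference of -0.07. The ratio of *Nrp2* to *Nrp1* was 0.113, 0.101 and 0.118 in transgenic hearts, against 0.145 and 0.174 in WT hearts. The 10 ratios computed share members, with *Kdr* in 4 of them, so the number without overlap is no separate result. Each ratio without overlap had a two-sided exact permutation p of 0.2 (0.286 after Benjamini-Hochberg adjustment over the 10), which is the smallest that 3 pools against 2 allow, so no ratio could pass the threshold.

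**Figure D3:**
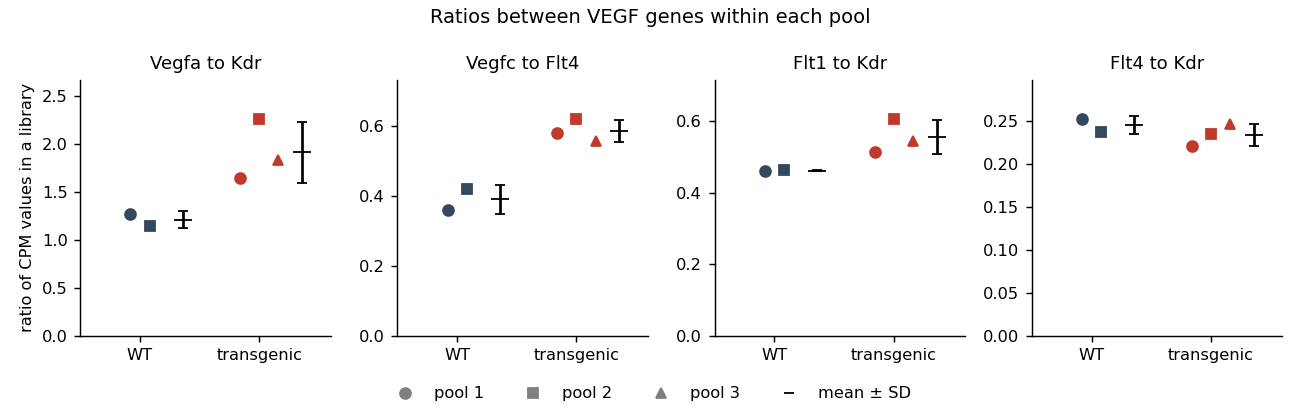
Ratio of the CPM values of 2 VEGF genes in each pool (vertical axes, starting at 0), WT pools dark and transgenic pools red, with the mean ± SD. Ratios of *Vegfa* to *Kdr*, *Vegfc* to *Flt4* and *Flt1* to *Kdr* are higher in all 3 transgenic pools, and the ratio of *Flt4* to *Kdr* overlaps between the genotypes.

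VEGF receptor transcripts come mostly from endothelial cells, and in these bulk samples fewer endothelial cells and less RNA per cell cannot be told apart. Endothelial markers were therefore set beside them, as far as they could be named. The deposited identifiers pair with symbols only for the 7 genes and for genes on the study's list of changed genes. Of 24 pan-endothelial markers 4 could be named, so no count over that list was possible, and these 4 are genes picked for having changed. Their summed level was 453 to 535 CPM in transgenic pools and 614 to 621 CPM in WT pools. *Tie1*, an endothelial receptor related to the angiopoietin receptor, and *Tspan18*, a tetraspanin, fell by 0.31 and 0.33 on the log2 scale (limma adjusted p = 0.0277 and 0.0370, and 0.0624 and 0.0903 without transgenic pool 2). With quantile normalization neither was called (limma adjusted p = 0.0520 and 0.0649). *Cdh5*, the cadherin of endothelial junctions, and *Mmrn2*, a matrix protein of endothelium, had log2 fold changes of -0.25 and -0.30 and were not called (limma adjusted p = 0.0563 and 0.0660). The part of a lower endothelial share in the fall of *Kdr* and *Flt4* was not tested.

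*Plvap*, which forms the diaphragms of endothelial fenestrae and is also an endocardial marker, was at 39.1, 35.97 and 48.5 CPM in transgenic hearts, against 65.8 and 69.2 CPM in WT hearts (log2 fold change -0.72, limma adjusted p = 0.00109). The coronary genes *Gja5*, an arterial connexin, *Aplnr*, the apelin receptor, and *Cd36*, a fatty acid transporter, fell by 0.55, 0.44 and 0.31 on the log2 scale (limma adjusted p = 0.00494, 0.0131 and 0.00816). DESeq2 on the recovered reads did not call *Gja5* (adjusted p = 0.0653). *Unc5b*, a guidance receptor of tip cells and arteries, rose, at 260, 233 and 209 CPM against 190 and 180 CPM (log2 fold change 0.34, limma adjusted p = 0.0225, and 0.0635 without transgenic pool 1). Of 11 coronary markers 4 could be named, and *Gja5* and *Cd36* are also made outside the endothelium.

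Other cell types had named markers as well. Like every marker and pathway gene named here, they are genes that the study listed as changed in these libraries. Differences in their levels and sums were thus selected for and are no separate evidence on the cells. Of 9 markers of smooth muscle and pericytes, the cells that wrap vessels, 4 could be named, with a summed level of 285 to 327 CPM in transgenic pools and 395 to 403 CPM in WT pools. *Myh11*, *Rgs5* and *Abcc9* among them fell by 0.71, 0.48 and 0.41 on the log2 scale (limma adjusted p = 0.0204, 0.00890 and 0.00282), and *Myh11* was not called without transgenic pool 2 (limma adjusted p = 0.0662). *Pdgfrb*, also among the 4, had a log2 fold change of -0.24 and was not called (limma adjusted p = 0.0519). Of 13 cardiomyocyte markers only *Ryr2* could be named, at 425 to 480 CPM in transgenic hearts, against 548 and 556 CPM in WT hearts. Of 10 epicardial and fibroblast markers 3 could be named, of which *Tbx18* rose by 0.37 and *Pdgfra* fell by 0.34. *Dcn*, also among the 3, had a log2 fold change of -0.22 and was not called (limma adjusted p = 0.0736). No lymphatic, valve mesenchyme, red cell or leukocyte marker could be named, and whether these cells differ in share was not tested.

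Genes that act on the VEGF pathway could be named in part. Of 19 genes whose products modulate VEGF receptors 5 could be named. *Plxnd1* and *Plxna2*, semaphorin receptors that partner with neuropilins, fell by 0.38 and 0.34 on the log2 scale (limma adjusted p = 0.0152 and 0.0213), and *Plxna2* was not called without transgenic pool 2 (limma adjusted p = 0.0656). *Spry4*, a feedback inhibitor of receptor tyrosine kinases, had a log2 fold change of -0.45 (limma adjusted p = 0.0595). None of the 32 genes of the VEGF signalling cascade could be named. Of 20 genes of the hypoxia response and of ligand control 3 could be named. *Epas1*, which encodes the hypoxia factor HIF-2 alpha of endothelium, fell by 0.32 (limma adjusted p = 0.0242, and 0.0738 without transgenic pool 2). *Egln1*, the oxygen-sensing prolyl hydroxylase, and *Slc2a1*, a glucose transporter, both rose, from 132 to 159 CPM and from 176 to 211 CPM (limma adjusted p = 0.0450 and 0.0415). Both calls were lost with libraries rescaled to the same total, with quantile normalization, without transgenic pool 2 (limma adjusted p = 0.128 and 0.115) and without either WT pool. *Slc2a1* was also not called without transgenic pool 1 (limma adjusted p = 0.0858). Of 21 transcription factors of endothelium, *Ets1* and *Sox18* could be named, and neither was called (log2 fold changes -0.24 and -0.41, limma adjusted p = 0.0740 and 0.0661).

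Every marker or pathway gene given above as called, other than *Nrp2* and *Bmp2*, lost its call in limma without WT pool 1 and without WT pool 2. In limma without the variance trend all of them lost their calls, *Nrp2* and *Bmp2* included (limma adjusted p = 0.174 and 0.143). Values of the heart factors *Gata4* and *Tbx20* under the alternative settings were not examined.

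The genes most like *Kdr* and *Flt4* over the 5 pools were sought among 378 named genes with a mean of at least 10 CPM. *Prrc2c*, *Mgat5* and *Itpr1* were nearest to *Kdr*, with Pearson correlations of log2 values of 0.9995, 0.9986 and 0.9984. *Bmp10*, a trabecular growth factor gene, *Nynrin* and *Sema6d* were nearest to *Flt4*, with 0.9984, 0.9980 and 0.9970. Like *Kdr*, *Prrc2c* was lowest in transgenic pool 2 (200 CPM, against 237 and 229 CPM in pools 1 and 3) and near equal in the WT pools (283 and 287 CPM). These correlations rest on 5 libraries and on genes selected for a difference between the same libraries, and are given as a description only.

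**Figure D4:**
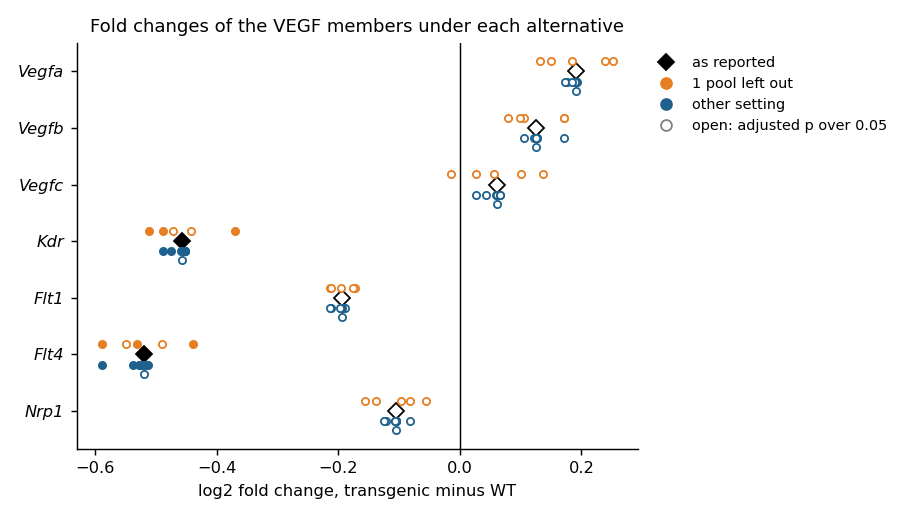
Log2 fold changes of the 7 VEGF genes (horizontal axis) as reported (diamonds), with 1 pool left out (orange) and under the other settings (blue, the lowest row of each gene being limma without the variance trend). Open symbols have an adjusted p over 0.05. *Kdr* and *Flt4* stay between -0.59 and -0.37, and their open symbols are the fits without 1 WT pool and without the trend.

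The calls of *Kdr* and *Flt4* were lost without either WT pool. With 3 transgenic pools and 1 WT pool, the adjusted p rose to 0.108 and 0.116 for *Kdr* and to 0.178 and 0.112 for *Flt4* (limma, without WT pool 1 and without WT pool 2), while 45 and 43 of all genes were called. The log2 fold changes in these fits were -0.47 and -0.44 for *Kdr* and -0.49 and -0.55 for *Flt4*. On the recovered reads, edgeR's quasi-likelihood test gave adjusted p-values of 0.00202 for *Kdr* and 0.00535 for *Flt4*, and DESeq2 gave 4.7e-05 and 0.00442. *Vegfa*, *Flt1*, *Vegfb*, *Vegfc* and *Nrp1* were called in none of the alternatives.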

How the data were processed

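RNA-seq values of 3 transgenic and 2 WT pools were analysed. The authors prepared polyA libraries and sequenced them as single-end reads on a GAIIx. They removed adaptors with cutadapt, quantified genes with RSEM over GRCm38 and Ensembl annotation, and normalized with edgeR. The processing notes of the submitters name cutadapt 1.0, RSEM 1.2.19, Bowtie 0.12.9, edgeR 3.0.8 and Picard. The study's own methods name other versions of cutadapt and RSEM. The authors deposited the values as CPM, which are counts relative to a scaled library size, after leaving out genes with low values. Columns were matched to pools by their titles, and 0 columns were left unused. RSEM shares reads between similar genes, and strand use in counting is not given in the sources used here.

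The values of each library were multiples of what 1 read is worth, within 0.01 reads for 100% of them, and reads were recovered from them. TMM factors computed anew from those reads, by edgeR's trimmed mean method, gave the same log2 fold changes as the deposited scaling. The limit that a count of 0 allows, 3 reads, is 0.287 to 0.402 CPM, and none of the 7 genes is near it. Intervals of limma reflect the spread between the pools analysed, after each gene's variance was drawn towards a trend over all genes. They and the p-values thus rest partly on the variance of other genes, not on the gene's own pools alone. Each pool was counted as 1 replicate, since pools of separate hearts are described. The WT pool that the study left out for clustering apart is not in the spread between pools. The intervals can therefore be too narrow and the p-values too small.

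log2(CPM + 0.5) was fitted with limma 3.58.1 (lmFit, eBayes with trend) in R 4.3.3, transgenic against WT with no covariate. The filter of at least 1 CPM in at least 2 libraries removed no gene. Count tests of the recovered reads used edgeR 4.0.16 and DESeq2 1.42.0. Ratios were compared by an exact permutation test (scipy 1.17.1). The scripts were tested on simulated data. Other settings were a pseudocount of 0.1 or 1, a filter at a mean of 5 CPM or none, no variance trend, quantile normalization, equal totals, new TMM factors, the count tests, a block for pool number, and fits lacking 1 pool.

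The 7 genes and all lists were chosen with earlier results of these data known. Named genes are the 7, the other family gene that could be named, *Bmp2*, up to 3 called genes per list and direction, and the 3 genes most like each called member. The uncalled genes of the lists that are named, and *Gata4*, *Tbx20* and *Ryr2* as heart genes, were added after their values were seen. Names came from the identifiers of the 7 and from the study's list of 406 changed genes, whose positions, reads and test values were not used. The RefSeq table of GRCm38.p6 gave positions but holds 0 Ensembl identifiers. Of 204 symbols in 16 lists 26 had a name, so the planned count of pan-endothelial markers and ratios of receptors to them were not run. Transcript lengths and sequences were not used here, and levels are not compared between genes.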

Additional observations from a re-analysis of the deposited data

How the results depend on the processing

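The fits with no filter and with new TMM factors repeated the main fit, since the filter removed no gene and the factors gave the same values. With these fits included, the count of 2 called VEGF genes was the same in 14 of 17 alternatives. It was 0 in limma without the variance trend (3 of the 7 had an unadjusted p under 0.05, and edgeR's and DESeq2's tests each called 2), and 0 to 2 with each pool left out, 0 without WT pool 1 or WT pool 2. A lone WT pool is assumed there to vary like the transgenic pools. Over all genes, 362 were called, against 10 without the trend, 232 with DESeq2 and 655 with the pool number as a block, and 43 to 464 with each pool left out. Without transgenic pool 2 the number was 226. With libraries rescaled to the same total, 125 genes were called as higher and 251 as lower, against 157 and 205. The edgeR exact test called 482 genes. Values under the alternatives were examined for 27 genes. They leave out the uncalled list genes, the heart factors and the genes most like *Kdr* and *Flt4*. The log2 fold change of *Vegfc* turned to -0.014 without WT pool 1 and ranged up to 0.14 with 1 pool left out. No other of the 27 genes changed direction. Among the 27, *Vegfa*, *Vegfb*, *Vegfc*, *Flt1* and *Nrp1* had no call to lose, and their values count in the total that follows. Over the 27 genes and up to 17 alternatives, 79 of 456 values were no longer called and none became called. The log2 ratio of *Flt1* to *Kdr* stayed between 0.20 and 0.32. With the pool number as a block, *Kdr* and *Flt4* remained called (limma adjusted p = 0.000199 and 0.000584). Transgenic pool 3 is alone in its block, so it does not enter this comparison. The log2 fold changes, -0.49 and -0.59, equal those of the fit without that pool. Neither these calls nor the 655 over all genes therefore compare all pools. Deviations of pools with the same number correlated at -0.026 and -0.05 across genes, which shows no sign of pairing. With 2 WT pools their deviations are exact opposites, so these values cannot settle whether the numbers pair the pools. In the main fit, with 2 WT pools, no difference under 0.22 on the log2 scale was called.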
